A study of Mus musculus with 32 samples.

Results

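Anterior forebrain transcription factors are described here by 8 genes, Hesx1, Fezf1, Fezf2, Emx1, Emx2, Nr2f1, Nr2f2 and Foxd1, taken by symbol from the 55492 rows of the expression table. All 8 were found, and all 8 passed the filter on low values that left 16276 genes for testing (at least 1 FPKM in at least 2 of the 32 libraries). The samples were mouse embryonic stem cells at day 0 and retinal organoids grown from them at days 2, 4 and 6, profiled by polyA mRNA sequencing. WT was the Rx:GFP line, untreated with dexamethasone. KO was that line with Mettl3 knocked out, Mettl3 encoding the catalytic subunit of the m6A RNA methyltransferase. The remaining cultures were Mettl3 KO cells overexpressing wild-type METTL3 fused to a domain named GRBD in the labels, so they carry the knockout too. They were kept without Dex, when the design places the fusion protein in the cytosol, or with 10 µM dexamethasone (Dex, a synthetic glucocorticoid), when it places it in the nucleus. All organoid cultures shared a GMEM medium with KSR, and AGN at 0.1 µM. Each of the 16 groups, 4 kinds of culture by 4 days, had 2 libraries, and whether these came from separate cultures is not stated, so p-values measure the spread between these libraries. That spread is pooled for each gene over all 16 groups, not taken from the compared groups alone. No culture lacking the fusion protein received Dex, so effects of Dex itself and of moving the protein cannot be told apart. How the knockout was made, how many clones each line represents and what drives the fusion protein are not given in the sources used here.

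The forebrain arises from the front end of the neural plate, where Wnt signalling is kept low and where the eye field lies next to the tissue that becomes telencephalon and diencephalon. Transcription factors switched on in sequence divide this region. Hesx1 marks the early anterior neural plate, Fezf1 and Fezf2 hold a forebrain identity behind it, Emx1 and Emx2 pattern the dorsal telencephalon, Nr2f1 and Nr2f2 act in the posterior telencephalon and in the optic vesicle, and Foxd1 marks the temporal retina and ventral diencephalon.

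Values are FPKM, fragments per kilobase of transcript, scaled to mapped fragments. Depth estimated from the steps between low values ran from 28.4 M to 49.4 M fragments, at which 3 fragments correspond to 0.013 to 0.128 FPKM for these genes, a limit that covers counting error only. Duplicate libraries correlated across genes at Pearson r from 0.9922 to 0.9955. Mettl3 mRNA, checked first, did not lie lower in KO libraries (34.9 to 43.8 FPKM over the days) than in WT (32.5 to 41.2 FPKM), and it was 44.5 to 75.1 FPKM in the fusion cultures. Gene-level FPKM does not show a small deletion, so the knockout rests on the labels, and KO stands for the libraries that carry that label. Among 6 retinal markers, Six6 stayed below 0.1 FPKM at day 6 in KO and in the fusion cultures without Dex, although all organoids carry the same tissue label. The 6 summed to 650 to 684 FPKM in WT, 117 to 118 in KO, 182 to 186 without Dex and 417 with Dex.

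By day 6 the 8 factors had come apart in the KO cultures. Hesx1, Fezf1, Fezf2 and Foxd1 were far below WT, and Nr2f1 and Nr2f2 were above it. Emx1 and Emx2 were below WT by 1.985-fold and 1.714-fold in mean FPKM, calls that depended on single libraries. In the fusion cultures with Dex, Fezf2, Emx1, Emx2, Nr2f1, Nr2f2 and Foxd1 exceeded WT. Fezf1 there reached 33.3 and 34.02 FPKM against 45.8 and 45.8 in WT, and Hesx1 stayed below 0.5 FPKM. Levels of Fezf2, Emx1, Emx2 and Nr2f2 were above WT without Dex too, a comparison that was not tested. The plot of levels over days shows these courses for each gene. In bulk RNA, fewer cells of a type and less RNA per cell cannot be told apart.

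**Figure D1:**
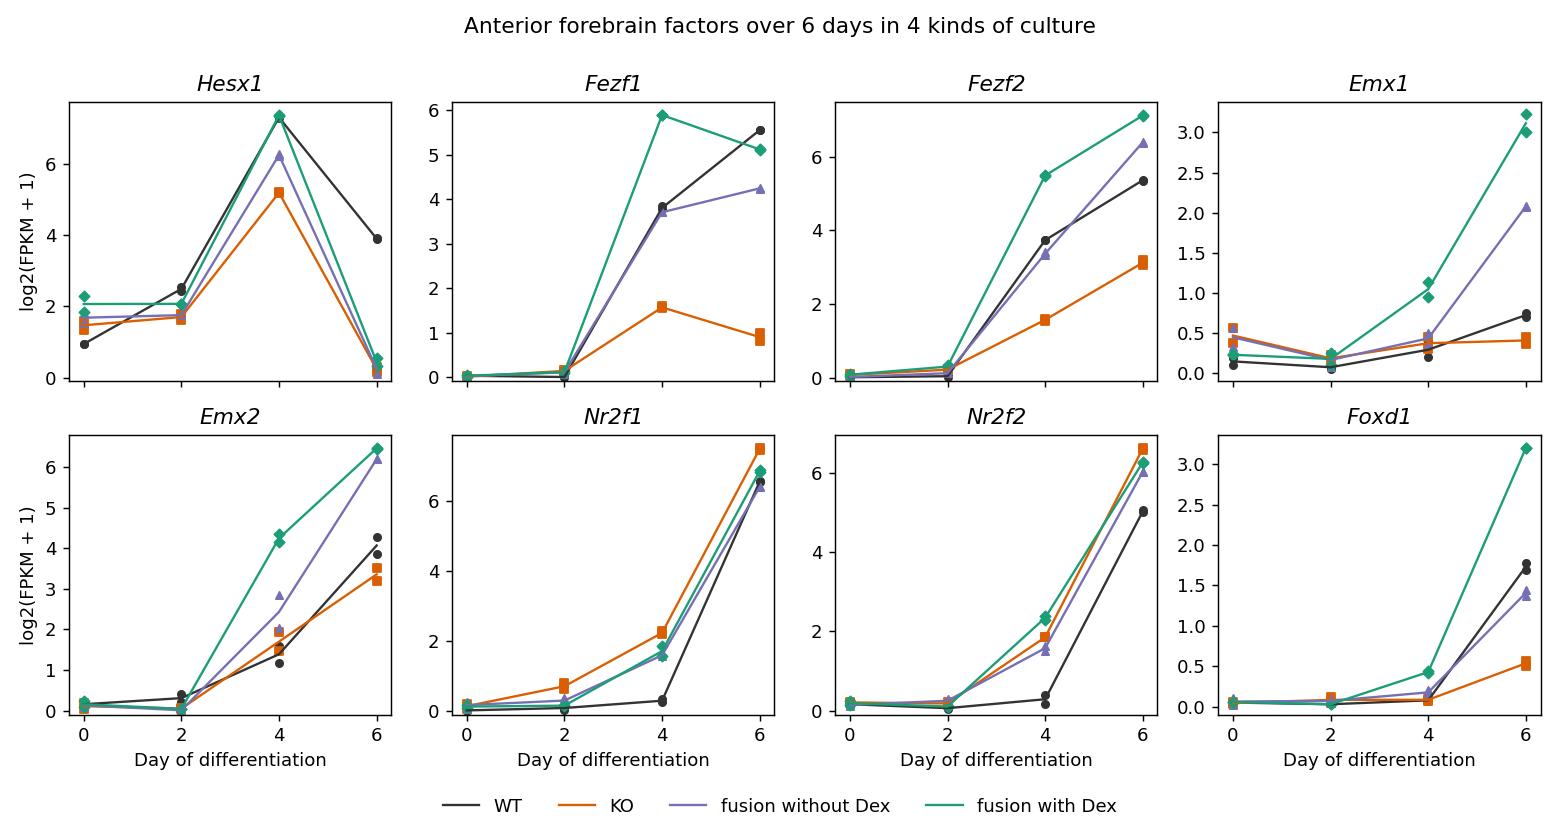
Level of each of the 8 factors as log2(FPKM + 1) (vertical axis, own range per panel) over days 0, 2, 4 and 6 of differentiation (horizontal axis). Points are single libraries, lines join the means of 2 libraries, and colours give the kind of culture. Hesx1 peaks at day 4 in all 4 kinds of culture, and at day 6 it lies at 13.7 and 14.1 FPKM in WT and below 0.5 FPKM in the other 6 libraries.

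Hesx1 (ENSMUSG00000040726; GRCm38 chromosome 14, 26994416 to 27002329, plus strand) encodes a homeobox repressor needed for forebrain and pituitary development. It was the member with the highest day 0 levels, at 0.94 and 0.92 FPKM in WT, 2.03 and 1.54 in KO, 1.91 and 2.55 without Dex and 3.88 and 2.60 with Dex. The WT libraries were the lowest. At day 2 this order had turned, with WT highest at 4.38 and 4.88 FPKM, while KO had 2.06 and 2.47, the fusion without Dex 2.39 and 2.37 and the fusion with Dex 3.20 and 3.21. The difference of KO from WT was 0.52 ± 0.13 (SE) on the log2(FPKM + 1) scale at day 0 and -0.79 ± 0.13 at day 2 (limma adjusted p = 0.0018 and 2.17e-05). Fitting the compared groups alone ended the day 0 call (adjusted p = 0.0578).

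At day 4 Hesx1 reached 153 and 158 FPKM in WT, 35.1 and 35.6 in KO, 76.1 and 72.9 without Dex and 159.9 and 165 with Dex. The WT and Dex libraries were close together, the no Dex libraries in between and the KO libraries lowest, with no overlap between groups. KO was lower than WT by 4.396-fold (log2 change -2.10 ± 0.13, limma adjusted p = 2.65e-11). The fusion without Dex was 1.05 ± 0.13 above KO, and Dex added 1.11 ± 0.13 (limma adjusted p = 5.18e-06 and 8.13e-07). Between Dex and WT the difference was 0.06 ± 0.13 (adjusted p = 0.736).

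By day 6 Hesx1 had fallen in every kind of culture, to 13.7 and 14.1 FPKM in WT, 0.13 and 0.24 in KO, 0.32 and 0.08 without Dex and 0.47 and 0.26 with Dex. Those of KO and no Dex lay near the level of 3 fragments, which is 0.068 to 0.128 FPKM for this gene. The WT libraries alone kept a clear signal, with KO at -3.65 ± 0.13 and Dex at -3.45 ± 0.13 against WT (limma adjusted p = 3.66e-15 and 1.84e-14). Neither the fusion without Dex against KO (0.01) nor Dex against no Dex (0.19 ± 0.13, adjusted p = 0.248) passed the threshold at day 6. The levels of Dex and WT, close at day 4, were far apart at day 6. Over the 16 group means in order, 6 of 15 neighbouring groups overlapped, all at or below rank 7.

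Fezf1 (ENSMUSG00000029697; chromosome 6, 23245044 to 23248362, minus strand) and Fezf2 (ENSMUSG00000021743; chromosome 14, 12342094 to 12348189, minus strand) encode related zinc finger repressors of the forebrain, Fezf2 being known also for specifying corticospinal neurons. Their promoter windows, 250 bases before to 50 bases after the RefSeq start (GRCm38.p6, minus strand, 5′ to 3′), are shown because the 2 genes rose in step at day 4 and diverged at day 6. Capitals mark matches on either strand to the motifs searched, the homeodomain motifs TAATTA and TAATCC and the CCAAT box, none of which overlaps another. Fezf1 is chr6:23248215-23248514 and Fezf2 is chr14:12345816-12346115.
Fezf1: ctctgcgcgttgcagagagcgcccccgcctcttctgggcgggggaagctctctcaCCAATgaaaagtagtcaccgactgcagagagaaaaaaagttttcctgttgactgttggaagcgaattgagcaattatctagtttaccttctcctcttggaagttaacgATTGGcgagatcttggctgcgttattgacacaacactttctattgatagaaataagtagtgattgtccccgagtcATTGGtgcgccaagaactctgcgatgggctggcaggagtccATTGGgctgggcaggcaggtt
Fezf2: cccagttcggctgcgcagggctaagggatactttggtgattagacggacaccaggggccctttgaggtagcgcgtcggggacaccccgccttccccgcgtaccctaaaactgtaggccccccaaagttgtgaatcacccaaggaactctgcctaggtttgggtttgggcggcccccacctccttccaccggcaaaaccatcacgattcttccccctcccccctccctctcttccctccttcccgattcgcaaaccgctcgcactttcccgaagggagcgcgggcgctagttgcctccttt
Fezf1 holds 4 CCAAT matches, read as ATTGG where they lie on the other strand, and Fezf2 none of the 3 motifs. The Fezf2 window lies inside the annotated gene and does not reach its outermost start at 12348189. The Fezf1 window covers that of Fezf1 at 23248362. Of 32851 promoter windows of this length, 5.3% hold TAATTA, 7.1% TAATCC and 37.4% CCAAT. A match is a description of letters in the window.

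Fezf1 was at or below 0.12 FPKM in every library at days 0 and 2. At day 4 it stood at 13.3 and 12.6 FPKM in WT, 1.92 and 2.00 in KO, 12.05 and 11.99 without Dex and 58.5 and 57.8 with Dex. The no Dex libraries came just under WT and the Dex libraries far above it. KO against WT was -2.24 ± 0.05, no Dex against KO 2.14 ± 0.05, Dex against no Dex 2.18 ± 0.05 and Dex against WT 2.09 ± 0.05, all past the threshold in limma (adjusted p from 6.86e-16 to 1.13e-17).

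At day 6 Fezf1 was at 45.8 and 45.8 FPKM in WT, 0.76 and 0.97 in KO, 18.1 and 17.7 without Dex and 33.3 and 34.02 with Dex. The 4 groups did not overlap, and KO was lower than WT by 52.9-fold, a log2(FPKM + 1) change of -4.65 ± 0.05 (limma adjusted p = 4.3e-23). From day 4 to day 6 Fezf1 rose in WT (1.75 ± 0.05) and without Dex (0.54 ± 0.05) and fell in KO (-0.67 ± 0.05) and with Dex (-0.77 ± 0.05), each called in limma (adjusted p from 1.46e-16 to 7.02e-09). The Dex cultures therefore had their highest Fezf1 level at day 4 and the WT cultures at day 6.

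Fezf2 was at or below 0.27 FPKM at days 0 and 2. At day 4 it resembled Fezf1, with 12.4 and 12.2 FPKM in WT, 1.93 and 2.02 in KO, 9.0 and 9.6 without Dex and 44.4 and 43.2 with Dex. At day 6 it did not, with 39.6 and 40.3 FPKM in WT, 8.10 and 7.31 in KO, 82.1 and 83.3 without Dex and 135 and 139 with Dex. The highest levels were now in the fusion cultures, those without Dex included, and the 4 groups did not overlap. The KO difference from WT was -2.24 ± 0.05 (limma adjusted p = 1.5e-18), no Dex against KO 3.27 ± 0.05 and Dex against WT 1.76 ± 0.05. Dex against no Dex was 0.73 ± 0.05 (limma adjusted p = 2.4e-10), after 2.12 ± 0.05 at day 4.

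The ratio of Fezf2 to Fezf1, both per length, puts this in one value per library. At day 4 it lay between 0.747 and 1.010 in all 8 libraries. At day 6 it was 0.87 and 0.88 in WT, 10.7 and 7.54 in KO, 4.55 and 4.70 without Dex and 4.08 and 4.10 with Dex. WT kept the day 4 balance, and the other 6 libraries all had more Fezf2 than Fezf1. These ratios are descriptions with no test. The plot of balances shows them beside those of the other gene pairs.

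**Figure D2:**
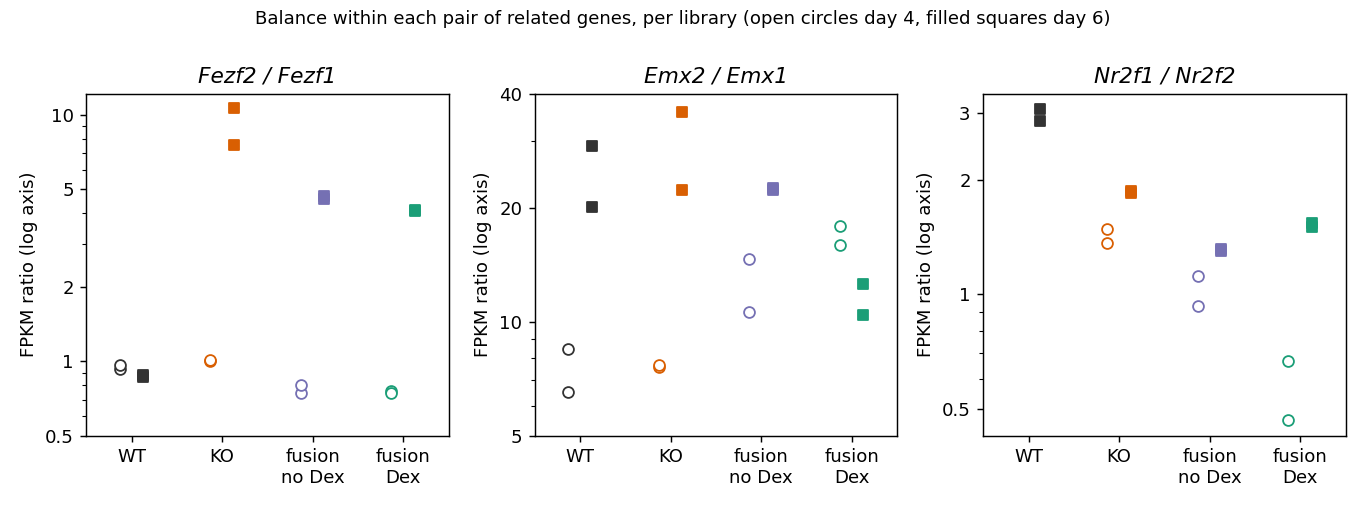
FPKM ratio within 3 pairs of related genes (vertical axis, log scale, own range per panel) by kind of culture (horizontal axis). Each symbol is 1 library, open circles for day 4 and filled squares for day 6, and the WT day 4 ratio of Nr2f1 to Nr2f2 is left out because the 2 genes together were below 1 FPKM. Fezf2/Fezf1 stays near 1 in WT and lies between 4.08 and 10.7 in the other cultures at day 6.

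Emx1 (ENSMUSG00000033726; chromosome 6, 85187438 to 85204462, plus strand) and Emx2 (ENSMUSG00000043969; chromosome 19, 59458372 to 59465357, plus strand) are homeobox genes of the dorsal telencephalon, Emx2 acting also in cortical area patterning. Emx2 has an antisense neighbour, Emx2os, which overlaps it by 264 bases in the GENCODE annotation, where Emx2 begins at 59458372. By the RefSeq start of Emx2, 59458690, the 2 genes share no bases. The promoter window of Emx2 is shown because the 2 starts lie 55 bases apart inside it (Emx2 at 59458690 in RefSeq, Emx2os at 59458635). It is chr19:59458440-59458739 (GRCm38.p6, plus strand, 5′ to 3′), with 1 CCAAT and 1 TAATTA match in capitals.
Emx2: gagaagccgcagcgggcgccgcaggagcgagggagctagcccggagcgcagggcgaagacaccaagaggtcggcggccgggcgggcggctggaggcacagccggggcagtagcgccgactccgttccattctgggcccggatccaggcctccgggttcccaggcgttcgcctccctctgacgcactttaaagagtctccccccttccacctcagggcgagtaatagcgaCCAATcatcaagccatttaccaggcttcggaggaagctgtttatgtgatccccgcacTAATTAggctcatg

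Emx2 was at or below 0.32 FPKM at days 0 and 2. At day 4 it had 2.02 and 1.27 FPKM in WT, 1.75 and 2.84 in KO, 6.16 and 3.07 without Dex and 19.3 and 16.8 with Dex. The WT and KO libraries overlapped (KO against WT 0.31 ± 0.20, limma adjusted p = 0.194), and the Dex libraries were the highest. Dex against no Dex was 1.82 ± 0.20 and Dex against WT 2.86 ± 0.20 (limma adjusted p = 6.59e-07 and 1.04e-09). No Dex against KO was 0.73 ± 0.20 (adjusted p = 0.0105) and rested on 1 high library, being 0.33 without fusion without Dex replicate 1 and 1.14 without replicate 2. That call also ended without KO replicate 1 (0.49), with a pseudocount of 0.1 (adjusted p = 0.0583) and with the compared groups alone (adjusted p = 0.263).

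At day 6 Emx2 was at 13.6 and 18.3 FPKM in WT, 8.22 and 10.4 in KO, 72.4 and 72.4 without Dex and 88.1 and 86.9 with Dex. All 4 fusion libraries were more than 3 times any WT or KO library. No Dex against KO was 2.84 ± 0.20, a 7.78-fold difference in mean FPKM, and Dex against WT 2.40 ± 0.20, a 5.48-fold difference (limma adjusted p = 6.87e-10 and 3.96e-09). Dex against no Dex was 0.27 ± 0.20 and was not called (adjusted p = 0.31), although the compared groups fitted alone gave an adjusted p of 0.00693. In KO, Emx2 was lower than WT, at -0.71 ± 0.20 (limma adjusted p = 0.00426). That call ended without WT replicate 2 (-0.51), without KO replicate 1 (-0.56) or with a pseudocount of 0.1 (adjusted p = 0.0617).

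Emx2os stayed below 1 FPKM and was not tested, with 0.21 and 0.17 FPKM at day 6 in WT, 0.06 and 0.09 in KO, 0.71 and 0.78 without Dex and 0.77 and 0.84 with Dex, the same order of groups as Emx2. Strand use in counting is not stated, so reads in the shared bases cannot be told apart.

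Emx1 was the weaker of the pair. It had 0.31 and 0.15 FPKM at day 4 in WT, 0.23 and 0.37 in KO, 0.42 and 0.29 without Dex and 1.21 and 0.94 with Dex. Only the Dex libraries were separate, 0.61 ± 0.10 above no Dex and 0.75 ± 0.10 above WT (limma adjusted p = 7.32e-05 and 5.69e-06). At day 6 Emx1 was at 0.68 and 0.63 FPKM in WT, 0.37 and 0.29 in KO, 3.21 and 3.25 without Dex and 7.02 and 8.36 with Dex. As for Emx2, the fusion cultures were highest with and without Dex. No Dex was 1.67 ± 0.10 above KO, and Dex 1.03 ± 0.10 above no Dex and 2.39 ± 0.10 above WT (limma adjusted p = 7.89e-11, 1.12e-07 and 1.87e-13). KO against WT was -0.32 ± 0.10 (adjusted p = 0.0103), a call that ended without WT replicate 1 (-0.29) or KO replicate 2 (-0.27).

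Emx2 exceeded Emx1 in every library of days 4 and 6. At day 6 the Emx2 to Emx1 ratio was 20.03 and 29.03 in WT, 22.2 and 35.9 in KO, 22.6 and 22.3 without Dex and 12.6 and 10.4 with Dex. The Dex libraries had the lowest ratio, next to a smaller Emx2 than Emx1 difference between Dex and no Dex. The difference between these ratios was not tested.

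Nr2f1 (ENSMUSG00000069171; chromosome 13, 78188973 to 78199757, minus strand) and Nr2f2 (ENSMUSG00000030551; chromosome 7, 70351944 to 70366735, minus strand) encode the orphan nuclear receptors COUP-TFI and COUP-TFII, which pattern the telencephalon along its front to back axis and act in optic vesicle and neural crest derivatives. Nr2f1 appeared first in KO. At day 2 it had 0.02 and 0.11 FPKM in WT, 0.73 and 0.55 in KO, 0.30 and 0.17 without Dex and 0.13 and 0.10 with Dex. KO was above WT by 0.62 ± 0.09 and no Dex below KO by -0.41 ± 0.09 (limma adjusted p = 3.7e-06 and 0.000889), and fitting the compared groups alone ended the second call (adjusted p = 0.0575).

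At day 4 Nr2f1 had 0.27 and 0.19 FPKM in WT, 3.85 and 3.58 in KO, 1.97 and 2.08 without Dex and 2.61 and 1.99 with Dex. Nr2f2 had 0.32 and 0.13 FPKM in WT, 2.60 and 2.62 in KO, 2.11 and 1.86 without Dex and 3.9 and 4.25 with Dex. For both genes WT was lowest, while KO was highest for Nr2f1 and Dex for Nr2f2. KO against WT was 1.94 ± 0.09 for Nr2f1 and 1.56 ± 0.06 for Nr2f2, and Dex against WT 1.42 ± 0.09 and 2.05 ± 0.06, all called in limma (adjusted p from 1.16e-10 to 8.35e-15). Dex against no Dex was called for Nr2f2 (0.77 ± 0.06, adjusted p = 1.84e-08) and not for Nr2f1 (0.12 ± 0.09, adjusted p = 0.294), which was 0.26 and called without Dex replicate 2 (adjusted p = 0.0395). Against KO, no Dex was lower by -0.64 for Nr2f1 and -0.28 for Nr2f2, calls that a pseudocount of 0.1 ended (adjusted p = 0.0568 and 0.245). The Nr2f2 call also ended with the compared groups alone (adjusted p = 0.0854) and without fusion without Dex replicate 2 (-0.21).

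Both genes then rose steeply. At day 6 Nr2f1 was at 95.01 and 91.89 FPKM in WT, 176 and 183 in KO, 84.1 and 83.9 without Dex and 113 and 118 with Dex. Nr2f2 was at 31.0 and 32.2 FPKM in WT, 95.2 and 98.1 in KO, 63.9 and 64.4 without Dex and 75.2 and 76.5 with Dex. KO was highest for both, and WT lowest for Nr2f2 alone. From day 4 to day 6 the WT change was 6.26 ± 0.09 for Nr2f1 and 4.74 ± 0.06 for Nr2f2 (limma adjusted p = 3.59e-21 for each).

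At day 6 KO exceeded WT by 1.92-fold for Nr2f1 (0.94 ± 0.09) and 3.06-fold for Nr2f2 (1.58 ± 0.06; limma adjusted p = 9.7e-09 and 4.95e-14). No Dex was below KO by -1.09 ± 0.09 and -0.58 ± 0.06 (limma adjusted p = 2.91e-09 and 3.27e-07). Dex lay above no Dex by 0.45 ± 0.09 and 0.24 ± 0.06 (limma adjusted p = 0.000242 and 0.00539), with a pseudocount of 0.1 ending both calls (adjusted p = 0.266 and 0.428). Dex lay above WT by 0.30 ± 0.09 and 1.24 ± 0.06 (limma adjusted p = 0.00467 and 3.67e-12), and the Nr2f1 call ended with that pseudocount (adjusted p = 0.422). The Nr2f1 to Nr2f2 ratio was 3.06 and 2.85 in WT, 1.85 and 1.87 in KO, 1.315 and 1.303 without Dex and 1.51 and 1.54 with Dex. Nr2f1 thus led Nr2f2 most in WT, a difference in ratio that was not tested.

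Each of these genes has a neighbour transcribed from the other strand, A830082K12Rik overlapping Nr2f1 by 1741 bases and B130024G19Rik overlapping Nr2f2 by 1826 bases, whose reads cannot be told apart from theirs without strand. At day 6 A830082K12Rik had 28.3 and 23.2 FPKM in WT, 35.3 and 34.6 in KO, 19.7 and 22.5 without Dex and 27.7 and 26.2 with Dex. B130024G19Rik had 1.49 and 1.24 FPKM in WT, 3.09 and 2.61 in KO, 3.16 and 2.93 without Dex and 3.57 and 3.53 with Dex. KO was highest for the first, as for Nr2f1, and WT lowest for the second, as for Nr2f2. Neural crest and neuron markers were, like Nr2f2, highest in KO and lowest in WT, but lower with Dex than without it, where Nr2f2 was higher. At day 6 the 7 neural crest markers summed to 5.67 to 6.00 FPKM in WT, where 1 of 7 reached 1 FPKM, 133 to 135 in KO, 89.8 to 91.9 without Dex and 37.2 to 38.9 with Dex, where all 7 did. The 6 neuron markers summed to 42.7 to 44.7, 311 to 315, 249 to 251 and 147 to 149 FPKM in the same order. The part of either cell type in the Nr2f1 and Nr2f2 levels was not tested.

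Foxd1 (ENSMUSG00000078302; chromosome 13, 98354242 to 98359305, plus strand, 1 exon) encodes a forkhead factor of the temporal retina. It was the last to appear, below 0.4 FPKM in every library through day 4. At day 4 it had 0.05 and 0.06 FPKM in WT, 0.05 and 0.07 in KO, 0.15 and 0.11 without Dex and 0.33 and 0.36 with Dex. The Dex libraries were already separate, by 0.25 ± 0.05 from no Dex (limma adjusted p = 0.000576). At day 6 Foxd1 was at 2.42 and 2.23 FPKM in WT, 0.48 and 0.42 in KO, 1.59 and 1.72 without Dex and 8.19 and 8.24 with Dex. Every group was separate, KO lowest and Dex highest. KO against WT was -1.20 ± 0.05, no Dex against KO 0.87 ± 0.05, Dex against no Dex 1.80 ± 0.05 and Dex against WT 1.47 ± 0.05 (limma adjusted p from 4.61e-11 to 2.63e-15). Dex exceeded WT by 3.53-fold in mean FPKM. Pigment epithelium markers were also highest with Dex, with WT next, but did not separate KO from no Dex, the 5 summing to 16.3 to 17.7 FPKM in WT, 1.86 to 2.11 in KO, 1.67 to 1.93 without Dex and 102 to 103 with Dex at day 6, with Tyr below 0.1 FPKM in every group. Their part in the Foxd1 level was not tested.

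**Figure D3:**
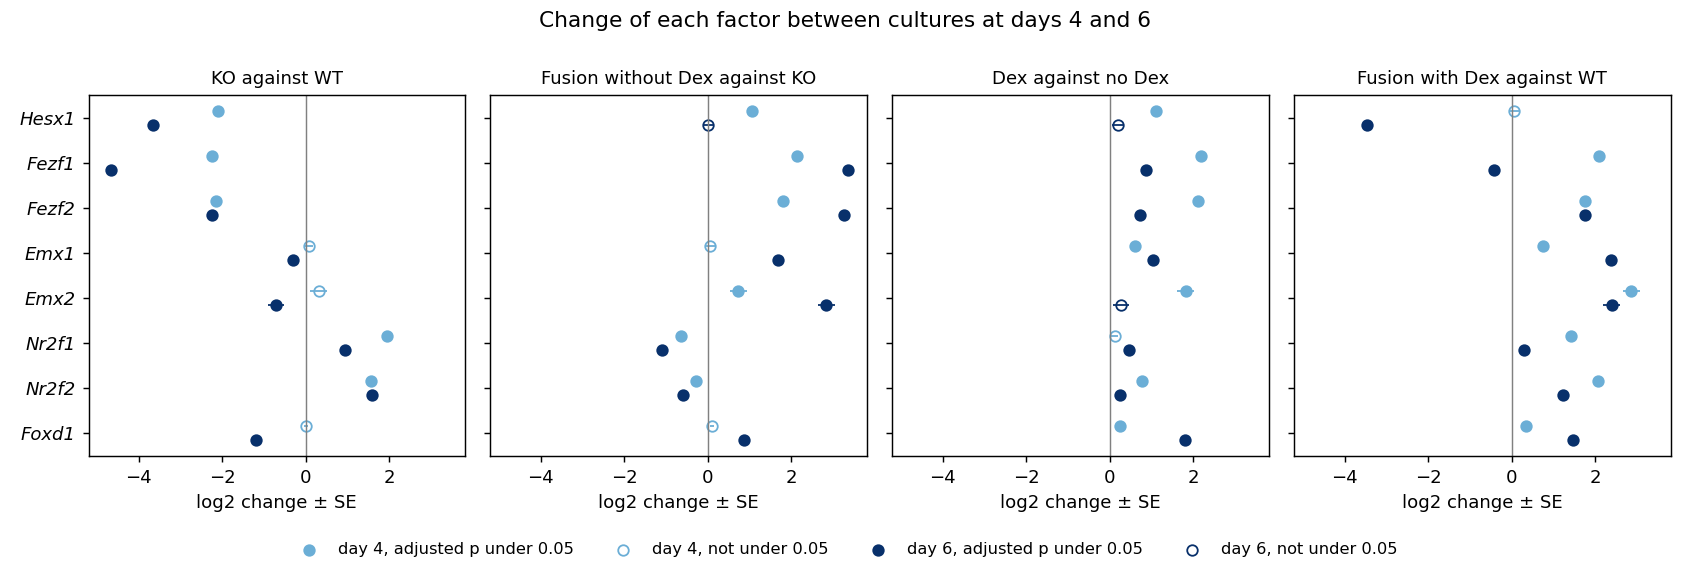
Log2 change ± SE on the log2(FPKM + 1) scale (horizontal axis) of each factor (vertical axis) in the 4 comparisons between cultures, at day 4 (light) and day 6 (dark). Filled circles have a limma adjusted p under 0.05. In KO against WT at day 6, Nr2f1 and Nr2f2 lie to the right of 0 and the other 6 genes to the left, from -0.32 for Emx1 to -4.65 for Fezf1.

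Set against all genes, the KO against WT comparison asked which of the factors differed between these lines at each day. On days 0, 2, 4 and 6 the number of the 8 members called was 2, 4, 5 and 8 (limma, Benjamini-Hochberg adjusted p under 0.05), while 48.2%, 58.9%, 60.5% and 65.1% of the 16276 genes tested were called. A change of at least 1 was called for 0, 0, 5 and 5 members, against 1.37%, 4.72%, 5.54% and 10.0% of all genes. By the first rule the share of members called was below that of all genes at days 0 and 2 and close to it at day 4. The day 6 count of 8 fell whichever of its libraries was left out, as Emx1 or Emx2 was then not called. The median change of the members was -0.95 at day 6, with 6 lower and 2 higher, against -0.03 over all genes, and 0.04 at day 4, with 3 lower and 2 higher, against 0.06. Without WT day 0 replicate 1 or KO day 0 replicate 2, 1 member was called at day 0, and a pseudocount of 0.1 gave 4 there and the compared groups alone 0. Markers of other cells differed between these groups. At day 6 the 8 extraembryonic endoderm markers summed to 242 to 245 FPKM in WT and 41.1 to 42.1 in KO, where Gata4, Gata6 and Sox7 were below 0.1 FPKM, and the 7 pluripotency markers to 78.5 to 79.1 and 27.5 to 29.9. Their part in the members' differences was not tested.

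The fusion cultures without Dex, where the design places the protein in the cytosol, were set against KO. The number of clones behind each line is not given, so differences of line or clone cannot be told apart from those of the protein. This comparison shares the KO libraries with the one before. None of the 8 was called at day 0, where 0 had an unadjusted p under 0.05 in limma, and on days 2, 4 and 6 the number called was 1, 6 and 7, against 49.1%, 37.0%, 26.7% and 49.0% of all genes. A pseudocount of 0.1 gave 1, 2 and 3 calls at days 0, 2 and 4, rescaling 1 at day 0, and the compared groups alone 0 at day 2. With a change of at least 1 the counts were 0, 0, 3 and 5, against 1.36%, 0.295%, 0.233% and 2.03%. Fezf1, Fezf2, Emx1, Emx2 and Foxd1 rose and Nr2f1 and Nr2f2 fell at day 6. The median change was 0.41 at day 4 and 1.27 at day 6, against -0.03 and -0.01 over all genes. The fusion without Dex was not tested against WT, and its day 6 values were above WT for Fezf2, Emx1, Emx2 and Nr2f2 and below it for Hesx1, Fezf1, Nr2f1 and Foxd1. Across KO and no Dex at day 6, neural crest markers summed to 133 to 135 and 89.8 to 91.9 FPKM, and midbrain, hindbrain and spinal cord genes to 158 to 162 and 66.0 to 69.0 FPKM. Their part was not tested.

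Dex against no Dex, which shares the no Dex libraries with the preceding comparison, asked what changed when the design places the fusion protein in the nucleus. Over days 0, 2, 4 and 6 the members called numbered 1, 2, 7 and 6, all higher with Dex, against 43.4%, 44.3%, 40.2% and 42.7% of all genes. A change of at least 1 was called for 0, 0, 4 and 2, against 0.498%, 0.467%, 0.915% and 1.52%. The largest changes were in Fezf1, Fezf2, Emx2 and Hesx1 at day 4 and in Foxd1 and Emx1 at day 6. The median change was 0.94 at day 4 and 0.59 at day 6, against -0.01 and 0.01 over all genes. The calls at day 0 and day 2 were fragile. Hesx1 at day 0 (0.38 ± 0.13, adjusted p = 0.018) was 0.24 without fusion without Dex replicate 1, 0.16 without fusion with Dex replicate 1 and 0.60 without fusion with Dex replicate 2, the first 2 not called. Leaving out any of the 4 libraries at day 2 left 0 or 1 call, and a replicate block, no filter on low values or the compared groups alone left 1. At day 0 the compared groups alone left 0. Day 0 libraries carry a Dex label, while the treatment protocol lists 2, 4 and 6 days.

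Fusion with Dex against WT asked how near the cultures came to WT. It shares the WT libraries with KO against WT and the Dex libraries with the comparison just given. The members called numbered 1 (Hesx1, 1.12 ± 0.13), 2, 7 and 8 over days 0, 2, 4 and 6, against 49.8%, 29.4%, 44.7% and 61.4% of all genes. The counts at a change of at least 1 were 1, 0, 5 and 6, against 1.70%, 0.977%, 2.01% and 5.90%. At day 4 the 7 called were all higher than WT, and Hesx1 was the one not called. At day 6 Hesx1 and Fezf1 (-0.43 ± 0.05) were lower and 6 higher, with a median of 1.35 against -0.02 over all genes. Markers of other cells differed here too. All 8 extraembryonic endoderm markers were lower with Dex (sums of 242 to 245 FPKM in WT and 37.2 to 38.6 with Dex), and all 7 neural crest markers were higher. Their part in the members' differences was not tested. With a pseudocount of 0.1 the day 0 count was 2. At day 2 the calls were Hesx1 (-0.42) and Fezf2 (0.26). Without WT replicate 2, fusion with Dex replicate 1 or fusion with Dex replicate 2, the Hesx1 value was -0.36, -0.42 and -0.42 and was not called.

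Over time, the members switched on mostly between days 2 and 6. The counts that follow take rises and falls together. From day 4 to day 6 the calls were 7 higher and 1 lower in WT and 5 and 2 in KO. Without Dex they were 7 and 1, and with Dex 6 and 2. All calls from day 2 to day 4 were higher. From day 0 to day 2, 1 call in KO and 1 without Dex were lower. In WT 1, 6 and 8 members were called from day 0 to 2, 2 to 4 and 4 to 6, against 63.4%, 59.9% and 66.7% of all genes, and 1, 4 and 7 by at least 1, against 11.0%, 8.05% and 10.0%. In KO the counts were 4, 6 and 7, against 65.6%, 64.2% and 65.3%, and by at least 1 they were 0, 6 and 5, against 12.6%, 8.46% and 11.1%. Without KO day 0 replicate 2 the first of these was 2. Without Dex 1, 7 and 8 were called, against 67.9%, 60.8% and 67.9%, and by at least 1 they were 0, 6 and 7, against 11.5%, 8.63% and 12.1%. Without the day 2 replicate 1 of that group the first count was 0. With Dex 1, 8 and 8 were called, against 60.6%, 66.7% and 65.1%, and 0, 6 and 7 by at least 1, against 11.2%, 10.8% and 10.6%. With a pseudocount of 0.1 the first count became 2 (WT), 4 (no Dex) and 2 (Dex).

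These counts held the same sequence in each kind of culture, Hesx1 rising from day 2 to day 4 and falling to day 6. From day 2 to day 4 the Hesx1 rise was 4.80 (WT), 3.48 (KO), 4.48 (no Dex) and 5.28 (Dex), and it then changed by -3.39, -4.94, -5.98 and -6.91 on the log2 scale (SE 0.13 for each, limma adjusted p from 1.15e-14 to 2.06e-19). Emx2, Nr2f1, Nr2f2, Fezf2 and Foxd1 rose from day 4 to day 6 in all 4. Whether the KO against WT difference itself changed from day 0 to day 6 was tested by an interaction, called for 7 members, 5 of them by at least 1, against 56.9% and 10.2% of all genes. The same for Dex against no Dex was called for 5 members, 2 of them by at least 1, against 48.7% and 3.27%, and for 3 members with a pseudocount of 0.1. For members near 0 FPKM at day 0, either interaction largely repeats the day 6 difference.

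**Figure D4:**
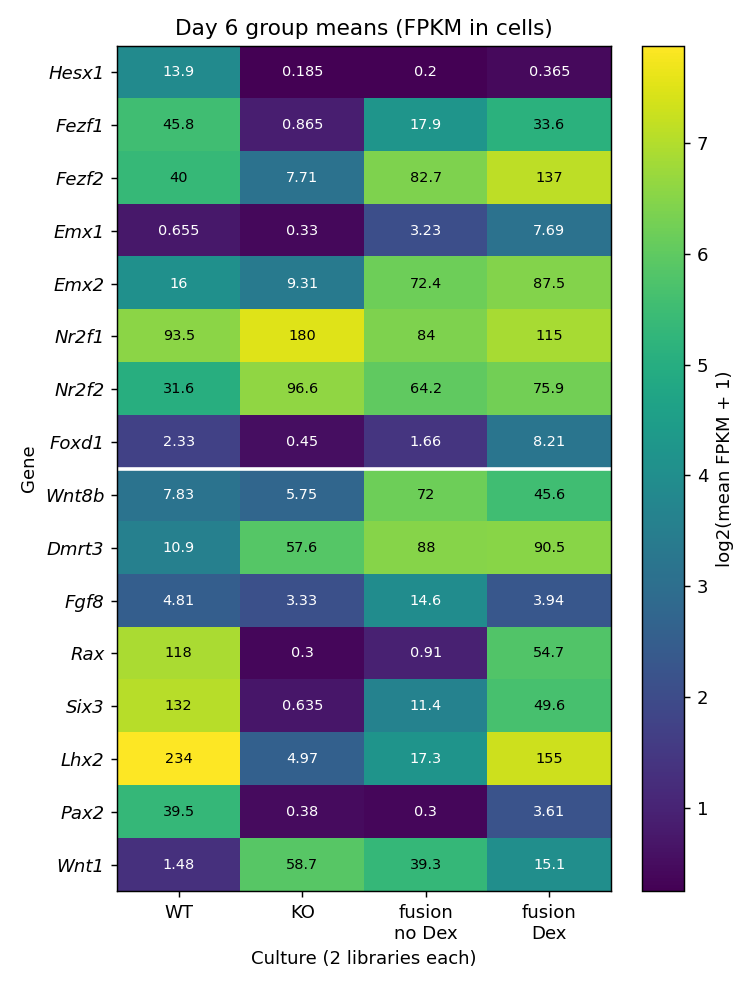
Mean FPKM of 2 libraries per kind of culture (columns) at day 6, printed in each cell and coloured by log2(mean FPKM + 1), for the 8 factors above the white line and for 8 other forebrain, eye field and midbrain genes named in the text below it. Rax and Pax2 are low in KO and without Dex, while Emx2 is high both without Dex (72.4) and with it (87.5). Wnt8b and Dmrt3 are also high without Dex, and Dmrt3 is higher in KO than in WT.

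Other genes of these territories put the members in context. Of 18 further telencephalon and anterior ridge genes, 14 were tested, and at day 6 KO against WT called 4 higher and 8 lower (median -0.22, against -0.03 over all genes). Dmrt3, a dorsal telencephalon factor, was the largest riser of the list in KO (2.31 ± 0.14). In Dex against no Dex 6 were called higher and 4 lower (median 0.03, against 0.01), with Fgf8, a signal of the anterior neural ridge and the midbrain-hindbrain boundary, falling most (-1.65 ± 0.16).

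Of 8 eye field genes, KO against WT called 7 lower and 0 higher at day 6 (median -4.22), and Dex against no Dex 7 higher and 0 lower (median 1.74). Rax, the eye field homeobox gene, changed most in both (-6.52 and 4.87). Of 12 midbrain, hindbrain and spinal cord genes 10 were tested. KO against WT called 4 higher and 4 lower (median -0.16), with Wnt1, the midbrain-hindbrain boundary ligand, rising by 4.59 and Pax2 at -4.88, and Dex against no Dex called 1 higher and 7 lower (median -0.32), Pax2 at 1.82 and Wnt1 at -1.32. Pax2 also marks the optic stalk. Among 9 listed paralogs and cofactors of the members, 8 were tested, with 5 higher and 2 lower in KO against WT (median 0.42) and 3 higher and 3 lower in Dex against no Dex (median 0.09). Of the Groucho family corepressors, Tle2 was the largest riser of this list in KO (1.65 ± 0.21) and Tle4 the largest faller (-0.81 ± 0.03). With Dex the largest riser was Zfpm1, a zinc finger cofactor (0.65 ± 0.06), and the largest faller Tle1 (-0.32 ± 0.04). All genes named from these lists passed the limma threshold.

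The genes most alike to each member, by Pearson r of log2(FPKM + 1) over the 16 group means, are given as a description, since the points share days and lines. Fezf1 was most like Six3 (0.971), Lhx2 (0.959) and Six3os1 (0.948), the first 2 of which are eye field genes. Fezf2 was most like another member, Emx2 (0.965), then Klhl5 (0.962) and Nmral1 (0.960). Emx2 was most like Wnt8b (0.971), a ligand of the cortical hem, then Slc44a5 and Airn (0.968 each). Emx1 was most like Wnt7a (0.931), Acat3 (0.930) and Sostdc1 (0.923). Nr2f1 was most like Nr2f2 (0.991), Slc8a3 (0.99) and Gab2 (0.988), and Nr2f2 most like Slc8a3 (0.996), Septin5 (0.991) and Zfp503 (0.991). Foxd1 was most like Lrmda (0.975), Sostdc1 (0.959) and Dmrta2os (0.958). Hesx1, with its day 4 peak, was most like Tctex1d1 (0.932), Caln1 (0.928) and Syt6 (0.927). Between the Fezf genes r was 0.942.

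The order of group means also differed between members. Fezf2, Emx1, Emx2 and Foxd1 were highest with Dex at day 6, Nr2f1 and Nr2f2 in KO at day 6, and Hesx1 and Fezf1 with Dex at day 4. The libraries of neighbouring groups in this order overlapped in 4 of 15 cases for Fezf2, 6 for Hesx1 and Fezf1, 8 for Emx2, Nr2f1 and Nr2f2, 9 for Foxd1 and 10 for Emx1. Among groups above 1 FPKM the overlapping neighbours were Emx2 with Dex at day 4 (16.8 to 19.3) and WT at day 6 (13.6 to 18.3), Emx2 in KO and WT at day 4, Nr2f1 with and without Dex at day 4, and Hesx1 groups of days 0 and 2.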

How the data were processed

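PolyA mRNA sequencing had been run on 32 libraries, 2 for each of 4 kinds of culture at days 0, 2, 4 and 6. The authors deposited gene-level FPKM rounded to 2 decimals; per the submitters' processing notes, STAR, Cuffdiff and the mm10 build were used, and the counting strand is not given in the sources used here. A table of 55492 rows was used, of which 99.4% matched GENCODE M21 (GRCm38), the source of positions. Promoter windows are from RefSeq (GRCm38.p6) and matched all 8 members.

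Log2(FPKM + 1) was fitted in R 4.3.3 with limma 3.58.1, with 16 group means, 16 residual degrees of freedom, eBayes with trend and Benjamini-Hochberg adjustment over the 16276 genes with at least 1 FPKM in at least 2 libraries. A gene was called at an adjusted p under 0.05, two-sided. Log2 changes on this scale understate those of low genes. Because the spread is pooled, the SE of a gene is the same in each comparison of 2 groups. For Emx2 it was 0.201. The compared groups alone gave 0.015 for Dex against no Dex at day 6 and 0.368 for no Dex against KO at day 4. Depth was estimated from FPKM steps, since 88.1% to 91.6% of low values came within 0.2 of whole fragments where 40.0% would by chance. On data simulated for KO against WT at day 6 over 16276 genes, 97.6% of changes of 1 and 98.3% of changes of 2 were recovered, and 4.6% of calls were false. Each simulation changed 200 genes averaging above 2 FPKM, with normal noise of 1 spread per gene, as the fit assumes. Low members such as Emx1 and Foxd1 lay outside that range, and the real comparison called 65.1% of genes. These rates were not tested for such genes or for so large a share.

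The members and gene lists were chosen with earlier results of these data known. From the lists, the genes named were the called genes with the largest change in each direction at day 6 in KO against WT or Dex against no Dex, and for each member the 3 most correlated genes with a symbol; some of the genes that this rule covers are not reported here. Alternatives were a pseudocount of 0.1, no filter, median-of-ratios rescaling, the replicate number as a block, the compared groups alone, a change of at least 1, and leaving out each library.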

Additional observations from a re-analysis of the deposited data

Results flagged for a closer look

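The difference between cultures at day 6 was set against the same difference at day 0 by an interaction contrast in limma, on the log2(FPKM + 1) scale, with Benjamini-Hochberg adjustment over all genes tested. For a gene near 0 FPKM in both groups at day 0, this contrast largely repeats the day 6 difference. Between KO and WT it was -4.18 ± 0.18 (SE) for Hesx1, which was above WT in KO at day 0 and below it at day 6. It was -4.63 ± 0.07 for Fezf1, -2.30 ± 0.06 for Fezf2 and -1.19 ± 0.07 for Foxd1, all near 0 FPKM in both at day 0. Emx1, above WT in KO at day 0 at levels under 0.5 FPKM, gave -0.64 ± 0.14 (limma adjusted p = 0.000837). Nr2f1 gave 0.81 ± 0.12 and Nr2f2 1.54 ± 0.09, both genes being at or below 0.17 FPKM in KO and WT at day 0. The adjusted p of these genes other than Emx1 ranged from 1.04e-05 to 3.62e-20, and Emx2 was not called (-0.67 ± 0.28, adjusted p = 0.0534), although it was called without WT day 6 replicate 1 (-0.86) or KO day 6 replicate 2 (-0.82).

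Between Dex and no Dex the interaction was largest for Foxd1 (1.80 ± 0.07), followed by Emx1 (1.25 ± 0.14), Fezf1 (0.87 ± 0.07), Fezf2 (0.66 ± 0.06) and Nr2f1 (0.50 ± 0.12), with limma adjusted p from 0.00205 to 6.08e-13. At day 0 Foxd1, Fezf1, Fezf2 and Nr2f1 were at or below 0.21 FPKM in both groups. Their interactions largely repeat the day 6 differences (1.80, 0.875, 0.73 and 0.45). Emx1 had 0.48 and 0.26 FPKM without Dex and 0.17 and 0.18 with Dex at day 0. Hesx1, Emx2 and Nr2f2 were not called. With a pseudocount of 0.1, the Dex interactions of Fezf2 (0.26, adjusted p = 0.323) and Nr2f1 (0.62, adjusted p = 0.277) and the KO interaction of Nr2f1 (0.15, adjusted p = 0.804) were no longer called. The cause of these differences was not tested.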

How the results depend on the processing

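Depth limits the low members, since 3 fragments correspond to up to 0.128 FPKM. With 2 libraries a group, leaving 1 out assumes that the lone library varies like the other groups. Rescaling moved the median of all genes by less than 0.1 in each comparison except the steps from day 0 to day 2 without Dex (0.099 to -0.011) and from day 2 to day 4 with Dex (0.089 to -0.018). Of 180 counts of members called under other settings, 150 stayed within 1.5 times, as did 114 of 128 with a library left out, and of the values of single genes 807 of 845 and 684 of 740 kept direction and call. These single-gene values left out those of days 0 and 2 that had not been called, except for Hesx1. Over all 240 pairs of member and comparison, a pseudocount of 0.1 ended 13 calls and added 18. Where no construction explains a change below, the cause was not tested.

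A pseudocount of 0.1 gave 4 members called in KO against WT at day 0, 1 (day 0), 2 (day 2) and 3 (day 4) in the fusion without Dex against KO, 2 in the fusion with Dex against WT at day 0, 2 (WT), 4 (no Dex) and 2 (Dex) for the step from day 0 to day 2, and 3 in the Dex interaction. Asking for a change of at least 1 lowered counts by construction, to 0 (day 0), 0 (day 2) and 5 (day 6) in KO against WT, 0 (day 2) and 3 (day 4) in the fusion without Dex against KO, 0 (day 0), 0 (day 2), 4 (day 4) and 2 (day 6) in Dex against no Dex, 0 in Dex against WT at day 2, 0 for the step from day 0 to day 2 in all kinds of culture but WT, and 2 in the Dex interaction. The compared groups alone, with fewer samples, gave 0 for KO against WT (day 0), 0 for no Dex against KO (day 2), and 0 (day 0) and 1 (day 2) for Dex against no Dex. Rescaling gave 1 for no Dex against KO (day 0), and dropping the filter 1 in Dex against no Dex at day 2.

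With the replicate block, 1 member was called in Dex against no Dex at day 2, Hesx1 being lost (adjusted p = 0.0538), the single call that changed among the 240 pairs of member and comparison. Duplicate differences correlated between groups at r from -0.09 to 0.13 over 120 group pairs, which gives no sign that equal numbers belong together.

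With each library left out, counts ran from 1 to 2 for KO against WT (day 0), from 0 to 2 (day 0) and 0 to 1 (day 2) for Dex against no Dex, 1 to 2 in Dex against WT at day 2, 2 to 3 from day 0 to day 2 in KO and 0 to 1 without Dex. The changes that reversed had not been called. With libraries left out, Emx1 ran from -0.013 to 0.175 in KO against WT at day 4, from -0.018 to 0.138 for the fusion without Dex against KO (day 4) and from -0.043 to 0.112 in KO from day 4 to day 6. Foxd1 ran from -0.007 to 0.020 in KO against WT at day 4 and from -0.040 to 0.041 in KO from day 2 to day 4 (-0.003 rescaled). Nr2f1 ran from -0.017 to 0.255 in Dex against no Dex at day 4. Hesx1 ran from -0.038 to 0.143 (day 2) and from -0.132 to 0.157 (day 6; -0.024 with a pseudocount of 0.1) for no Dex against KO, and from -0.071 to 0.216 from day 0 to day 2 without Dex (-0.064 rescaled). It ran from -0.215 to 0.224 from day 0 to day 2 with Dex, and from -0.414 to 0.025 in the Dex interaction (0.214 with a pseudocount of 0.1).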
